A study of Mus musculus with 4 samples.

Results

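Runx1, Runx2, Runx3, Cbfb and Ets1 are 5 transcription factor genes that were taken by symbol from the gene lists of 4 single-cell RNA libraries of mouse embryos. All 5 were found in each library, among 31914 genes joined over the libraries, 27566 of which are listed for all of them. The cells came from C57BL/6J embryos, either from the body outside the liver (the periphery) or from the fetal liver. Each tissue was taken at E14.5 and at E13.5, so the groups were E14.5 periphery, E13.5 periphery, E14.5 fetal liver and E13.5 fetal liver, with 1 library each. The study followed how lymphoid tissue inducer (LTi) cells, the innate lymphocytes that start lymph node formation, arise at these stages. In every group, CD45+ cells were enriched on magnetic beads, and live CD45+ F4/80- IL7Ra+ cells were sorted for 3′ tag libraries. No allele, transgene or drug is named for any group, and the number of embryos behind a library is not given in the sources used here.

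Runx1, Runx2 and Runx3 each encode the DNA-binding subunit of a core-binding factor and read the same short DNA motif. Cbfb encodes their shared partner, which does not touch DNA itself and raises the affinity and stability of the Runx protein. In mice, Runx1 is needed for blood stem cells to form and later acts in megakaryocytes, lymphocytes and mast cells. Runx2 is best known as the regulator of bone formation and is also used by plasmacytoid dendritic cells. Runx3 acts in cytotoxic T cells, in natural killer cells and in innate lymphoid cells, LTi cells included. Ets1 encodes the founding member of the Ets family and cooperates with Runx proteins on neighbouring sites in lymphoid genes.

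The genes lie apart in the genome (GRCm38). Runx1 is at chr16:92601466-92826149 on the minus strand, Runx2 at chr17:44495987-44814797 on the minus strand, Runx3 at chr4:135120652-135177990 on the plus strand, Cbfb at chr8:105170674-105217989 on the plus strand and Ets1 at chr9:32636221-32757820 on the plus strand. Supt3, a protein-coding gene, lies on the opposite strand across Runx2 and had 22.0, 27.4, 36.6 and 45.8 counts per 1000000 UMIs (CPM; a UMI marks 1 captured molecule) in E14.5 periphery, E13.5 periphery, E14.5 fetal liver and E13.5 fetal liver. How the counting used strand is not given in the sources used here. The named antisense transcripts of the 5 genes were at most 4.90 CPM, the level of Runx2os1 in E13.5 fetal liver.

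The 3 Runx genes share a short stretch of sequence near their upstream start site, which is shown because it holds the motif that Runx proteins themselves read. RefSeq promoter windows (GRCm38.p6) run from 250 bases before a start site to 50 after it and were on hand for 4 of the 5 genes, Ets1 being the exception. The longest run common to the upstream windows of Runx1, Runx2 and Runx3 was 18 bases, with the Runx motif TGTGGT (here as its reverse complement ACCACA, in capitals) at 2 places that do not overlap.
Runx1, chr16:92826025-92826054, minus strand: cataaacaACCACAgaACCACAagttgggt
Runx2, chr17:44814583-44814612, minus strand: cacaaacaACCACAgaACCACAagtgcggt
Runx3, chr4:135120503-135120532, plus strand: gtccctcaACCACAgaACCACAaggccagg

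The shared run begins at base 27 of the Runx1 transcript and at base 22 of the Runx2 transcript, but 136 bases before the Runx3 start site. Of 32851 mouse promoter windows, 3 held it in the orientation printed here. These were the windows of the 3 Runx genes that defined it, so the search adds only that no other window did. The reverse complement of the run was not searched, whereas the motif counts that follow cover both orientations. A single TGTGGT or ACCACA was far more widespread, at 16.8% of all windows, and 1.81% held 2 or more. The second, downstream windows of Runx1 and Runx3 held none, and the Runx2 window held 3 in all. The Cbfb window held no Runx motif but had 1 copy of the Ets motif AGGAAGT (searched also as ACTTCCT, found in 9.35% of windows), shown in capitals.
Cbfb, chr8:105170657-105170686, plus strand: agagcgaggagggcggcgagAGGAAGTggc

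After removal of poor barcodes and marked doublets, 4354 and 4165 cells were kept for E14.5 and E13.5 periphery, and 10768 and 10263 for E14.5 and E13.5 fetal liver, with median UMI counts of 8503, 11081, 15586.5 and 18450 in that order of libraries. The periphery was prepared with kit v2 and the fetal liver with kit v3, so tissue and kit cannot be told apart, and comparisons between tissues describe these libraries. Each group is 1 library, so no test of a difference was possible. Intervals are 95% and cover counting error only. The sorted receptor gene Il7r was measured at 394, 213, 188 and 150 CPM and Ptprc (CD45) at 66.0, 61.9, 98.3 and 143 CPM in the same order, while Adgre1 (F4/80) was 8.20 CPM or less. Of 12 LTi markers, 12 and 11 reached 10 CPM in E14.5 and E13.5 periphery and 5 in each fetal liver library, and their summed level was 4986, 2521, 218 and 256 CPM, so the sorted cells were a mixture of types and held few LTi marker transcripts in the fetal liver. The periphery libraries shared 33 barcodes with each other and the fetal liver libraries 29, against 0 to 3 between tissues. The number that coincidence would give was not computed, and mixing between libraries was not tested.

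Over all kept cells, Runx3 and Ets1 each had their highest level in E14.5 periphery, while Runx1, Runx2 and Cbfb each had theirs in the fetal liver. Runx1 had 29.99 (28.4 to 31.7) CPM in E14.5 periphery, 33.6 (32.0 to 35.2) in E13.5 periphery, 127 (126 to 129) in E14.5 fetal liver and 121 (119 to 122) in E13.5 fetal liver. Runx2 had 4.21, 10.1, 39.9 and 42.7 CPM in that order. Runx3 had 158 (154 to 162) CPM in E14.5 periphery, 91.5 (88.8 to 94.1) in E13.5 periphery, 83.5 (82.1 to 84.8) in E14.5 fetal liver and 108 (106 to 109) in E13.5 fetal liver. Runx3 was thus highest at the later stage in the periphery and at the earlier stage in the liver.

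Cbfb, the common partner, had 25.9 (24.4 to 27.5) CPM in E14.5 periphery, 15.01 (14.0 to 16.1) in E13.5 periphery, 68.7 (67.5 to 69.9) in E14.5 fetal liver and 68.1 (67.0 to 69.3) in E13.5 fetal liver. The 2 fetal liver values are next to each other in order and their intervals overlap. Ets1 had 121 (118 to 124) CPM in E14.5 periphery, 57.9 (55.8 to 60.03) in E13.5 periphery, 73.0 (71.7 to 74.2) in E14.5 fetal liver and 25.4 (24.7 to 26.1) in E13.5 fetal liver. It was higher at E14.5 than at E13.5 in each tissue, with intervals apart.

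**Figure D1:**
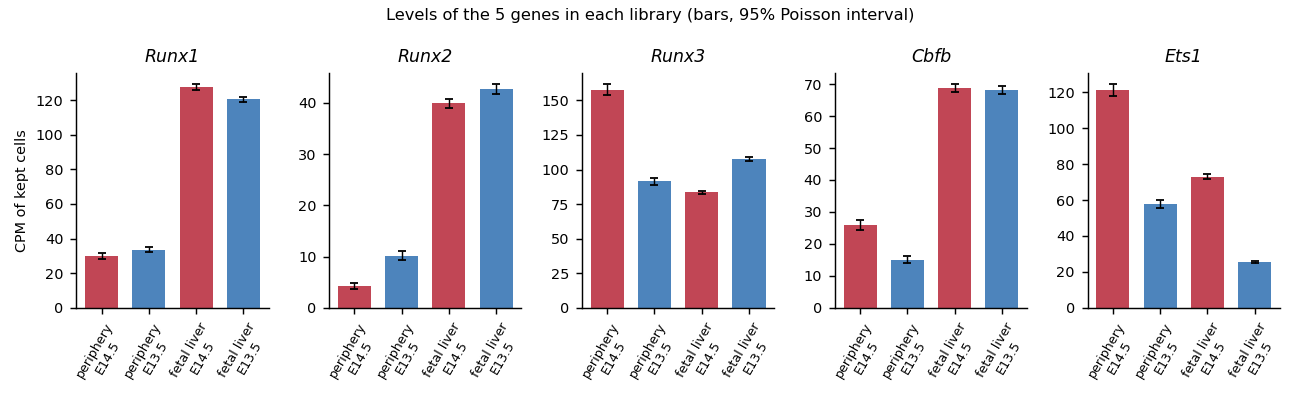
Level of each gene in each library, in CPM of the kept cells (linear axis of its own for each gene, bars from 0, 95% Poisson interval of counting error). The tallest bars of Runx3 and Ets1 are those of E14.5 periphery, at 158 and 121 CPM, while Runx1, Runx2 and Cbfb stand higher in both fetal liver libraries than in both periphery libraries.

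Together the 3 Runx genes came to 192, 135, 251 and 271 CPM in E14.5 periphery, E13.5 periphery, E14.5 fetal liver and E13.5 fetal liver. Runx3 made up 82.2% (81.3 to 83.0) of the Runx UMIs in E14.5 periphery and 67.7% (66.5 to 68.8) in E13.5 periphery, against 33.3% (32.8 to 33.7) in E14.5 fetal liver and 39.8% (39.3 to 40.2) in E13.5 fetal liver. Tags at the 3′ end are not divided by transcript length and may be captured unequally for each gene, so this share is compared between cells and not read as an order of the genes. Cbfb had 0.135 and 0.111 UMIs for each Runx UMI in E14.5 and E13.5 periphery, and 0.274 and 0.251 in E14.5 and E13.5 fetal liver.

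The stage comparison took E14.5 over E13.5 within a tissue, where the kit was the same. A fold here is the difference of log2(CPM + 5) between the libraries, less the median difference of all genes at 10 CPM or more in either library, and 0.5 or more from that median is called a difference. The added 5 CPM makes the folds of low genes such as Runx2 smaller. In the fetal liver 6.41% of 7742 genes were past that size in either direction, and 1 of the 5 members was. That member was Ets1, with a log2 fold of 1.39 (1.35 to 1.43), and 0.736% of the genes had a higher fold. Runx3 was at -0.32, Runx1 at 0.11, Runx2 at -0.06 and Cbfb at 0.04.

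In the periphery 16.0% of 7237 genes were past 0.5 in either direction, and 3 of the 5 members were. Ets1 was at 0.78 (0.71 to 0.84) and Runx3 at 0.53 (0.48 to 0.58), with 3.11% and 7.16% of the genes higher. Runx2 was at -0.94 (-1.07 to -0.82), from 178 UMIs in E14.5 periphery and 509 in E13.5 periphery. Cbfb was at 0.40 and Runx1 at -0.37. The median of all genes was itself 0.23 in the periphery comparison and -0.03 in the fetal liver one, and without its removal Cbfb in the periphery was at 0.63.

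To see which cells carried these levels, the cells of each tissue were clustered without the 5 genes, and clusters were named from marker lists. A class is called "like" its cell type for that reason, and clusters that did not meet the whole naming rule keep a number. In the periphery P1, P5 and P11 had enough raised LTi markers but did not meet the rule on leading genes. The same held for P4 (innate lymphoid progenitor), P9 (plasmacytoid) and P16 (T cell and group 2 innate lymphoid). P1 and P11 also had enough raised innate lymphoid progenitor markers, as did the clusters named LTi. The LTi-like class of the periphery thus leaves out cells with many LTi markers, and more of them at E13.5. P1, P5 and P11 held 81, 39 and 187 cells at E14.5 and 535, 291 and 210 at E13.5. The LTi-like shares of the 2 stages are therefore not shares of all cells with LTi markers. Periphery cells fell into LTi-like, B lineage-like, mast cell or basophil-like, monocyte or macrophage-like and plasmacytoid-like classes and the unnamed clusters P1 (led by Il1r2 and Pgam2), P4 (Ccl5, Klrd1, Cd3g), P5 and P11 (major histocompatibility class II genes), P9 (Sdpr, Hmga2, Cd34, Flt3) and P16 (Skap1, Tcrg-C4). Fetal liver cells fell into LTi-like, innate lymphoid progenitor-like, group 1 innate lymphoid or NK-like, B lineage-like, lymphoid progenitor-like, stem and multipotent progenitor-like, plasmacytoid-like, mast cell or basophil-like and neutrophil lineage-like classes and the unnamed clusters FL5 (Ecscr, Adgrl4, Cd34), FL8 (Ms4a6c, Csf1r, Irf8), FL9 (Nrp1, Id2, Batf3), FL10 (Cavin2, Ddit4l, Ccr9), FL14 (Hmox1, Slc40a1) and FL17 (Adgrl4, Hlf). FL14 was shallow, with medians of 2583 and 3781.5 UMIs at E14.5 and E13.5. Only groups of 50 or more cells in a library are described. LTi-like cells were 70.6% and 28.2% of the kept cells in E14.5 and E13.5 periphery and 2.18% and 3.80% in E14.5 and E13.5 fetal liver. B lineage-like cells were 7.10% and 7.56% in E14.5 and E13.5 periphery, and 35.4% and 1.99% in E14.5 and E13.5 fetal liver.

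By class, Runx1 was highest in mast cell or basophil-like cells in all 4 libraries. It had 194 (173 to 218) CPM there in E14.5 periphery, 124 (107 to 143) in E13.5 periphery, 562 (545 to 579) in E14.5 fetal liver and 411 (383 to 439) in E13.5 fetal liver, and in each library this interval lay above that of the next group. In the periphery the class value came mainly from cluster P10, led by the basophil genes Mcpt8 and Prss34, with 263 (231 to 298) CPM in 61 cells at E14.5 and 179 (152 to 208) in 52 cells at E13.5. Cluster P14, led by the mast cell genes Cma1, Tpsb2 and Mcpt2, had 85.96 (63.2 to 114) CPM in 23 cells at E14.5 and 40.9 (26.2 to 60.9) in 24 cells at E13.5. The second value was below plasmacytoid-like (74.3 CPM), B lineage-like (57.8), P9 (48.8) and monocyte or macrophage-like cells (42.1), with intervals that overlap. Cluster P13, with 37 cells at E14.5 and a median of 976 UMIs, held 4 Runx1 UMIs. Next among the other groups of the periphery were P16 at 52.1 CPM in E14.5 periphery and plasmacytoid-like cells at 74.3 CPM in E13.5 periphery. LTi-like cells of the periphery were among the lowest, with 16.6 (15.1 to 18.2) CPM at E14.5 and 10.6 (8.76 to 12.7) at E13.5, and only P11 at E14.5 and P5 at E13.5, with 6.86 and 10.2 CPM, were lower. Below the mast cell or basophil-like class of the fetal liver, levels at E14.5 ran from 184 CPM in FL14 to 59.9 CPM in neutrophil lineage-like cells. At E13.5 they ran from 163 CPM in FL17 to 55.2 CPM in group 1 innate lymphoid or NK-like cells. Stem and multipotent progenitor-like cells had 115 and 132 CPM at E14.5 and E13.5 but were a named class in only 2 of 5 clusterings. Stem cell markers also led unnamed clusters. FL17 (Adgrl4, Hlf) had 154 and 163 CPM of Runx1 at E14.5 and E13.5, and FL5 (Adgrl4, Cd34) 132 and 131. Lymphoid progenitor-like cells had 136 and 124.

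After thinning every cell to 4000 UMIs, a Runx1 UMI was present in 59.0% (47.7 to 69.7) of mast cell or basophil-like cells of E14.5 periphery, in 38.7% of those of E13.5 periphery, in 87.2% of those of E14.5 fetal liver and in 77.0% of those of E13.5 fetal liver. The lowest shares in the same libraries were 2.23% in P11, 3.38% in LTi-like cells, 19.3% in FL9 and 15.9% in group 1 innate lymphoid or NK-like cells. Without thinning the high shares were 59.5%, 77.6%, 92.4% and 93.8% (median UMIs 11926, 19840.5, 10090.5 and 13137.5) and the low ones 4.28%, 8.44%, 57.8% and 42.9% (7260, 9104, 17127 and 10957.5). Cells under 4000 UMIs were left out, 286 and 215 in E14.5 and E13.5 periphery and 549 and 297 in E14.5 and E13.5 fetal liver.

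Runx2 was highest in plasmacytoid-like cells wherever that class had enough cells. It had 121 (102 to 142) CPM there in E13.5 periphery, 229 (221 to 237) in E14.5 fetal liver and 156 (148 to 164) in E13.5 fetal liver. The next groups had 17.4 CPM (P9), 158 (FL9) and 76.1 (FL14) in the same libraries, with no overlap of intervals. The class had 5 cells in E14.5 periphery and is not described there, and the highest of the other groups of that library was P16 at 8.99 (2.92 to 20.98) CPM. Runx2 was lowest in B lineage-like cells of E14.5 periphery and E14.5 fetal liver, at 0.857 (0.278 to 1.9999) and 3.32 (2.89 to 3.80) CPM. In LTi-like cells it had 3.53 and 3.29 CPM in E14.5 and E13.5 periphery and 17.8 and 19.5 CPM in E14.5 and E13.5 fetal liver. A Runx2 UMI was found in 38.6%, 55.2% and 39.6% of thinned plasmacytoid-like cells of E13.5 periphery, E14.5 fetal liver and E13.5 fetal liver, against 0.50%, 1.46% and 2.49% in the lowest group of each (P11 at E13.5, then B lineage-like cells). Without thinning these shares were 70.6%, 86.5% and 78.9% against 1.90%, 4.38% and 11.3%.

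Runx3 was highest in P1 in the periphery and in LTi-like cells in the fetal liver. P1 had 376 (334 to 422) CPM at E14.5 and 165 (155 to 176) at E13.5. P1 was 81 cells at E14.5 and 535 at E13.5. LTi-like cells of the periphery were second at E14.5, with 190 (184 to 195) CPM, and had 91.4 (85.9 to 97.3) at E13.5. At E14.5 the LTi-like interval overlaps those of P11 (183 CPM) and P4 (176 CPM), and at E13.5 P11 (125 CPM) and P4 (111 CPM) were higher, with P9 (94.2 CPM) overlapping it. LTi-like cells of the fetal liver had 333 (310 to 357) CPM at E14.5 and 397 (380 to 414) at E13.5, above every other described group with no overlap. Innate lymphoid progenitor-like cells had 226 (215 to 237) CPM at E14.5 and 207 (200 to 215) at E13.5, and group 1 innate lymphoid or NK-like cells 173 (159 to 188) and 219 (196 to 245), so that these 2 classes overlapped at E13.5 but not at E14.5. B lineage-like cells had the lowest Runx3, with 16.6 and 21.9 CPM in E14.5 and E13.5 periphery and 41.0 CPM in E14.5 fetal liver. In E13.5 fetal liver neutrophil lineage-like cells were lowest, at 30.7 CPM, and B lineage-like cells had 40.7.

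A Runx3 UMI was found in 48.6% (46.7 to 50.4) of thinned LTi-like cells in E14.5 periphery, 30.1% (27.4 to 32.8) in E13.5 periphery, 64.7% (57.9 to 71.0) in E14.5 fetal liver and 73.3% (68.6 to 77.7) in E13.5 fetal liver. The lowest shares in those libraries were 6.62%, 8.06% and 14.3% in B lineage-like cells and 12.3% in neutrophil lineage-like cells. Without thinning the LTi-like shares were 68.8%, 51.5%, 79.1% and 90.8% (median UMIs 7996, 9104, 8864 and 11634.5) and the low ones 21.7%, 27.3%, 41.2% and 32.9% (19065, 13776, 15637.5 and 18710.5).

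The LTi-like class of the periphery came mainly from clusters P7, P6, P0 and P3 at E14.5 and from P2 at E13.5. Runx3 had 157 to 222 CPM in those 4 clusters at E14.5 and 90.2 CPM in P2 at E13.5. The 76 cells of P2 in E14.5 periphery had 260 CPM of Runx3 and 140 CPM of Ets1, against 90.2 and 93.3 CPM in its 1085 cells of E13.5 periphery. In the fetal liver LTi-like cells formed a class of their own in 3 of 5 clusterings and no named class in the rest.

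**Figure D2:**
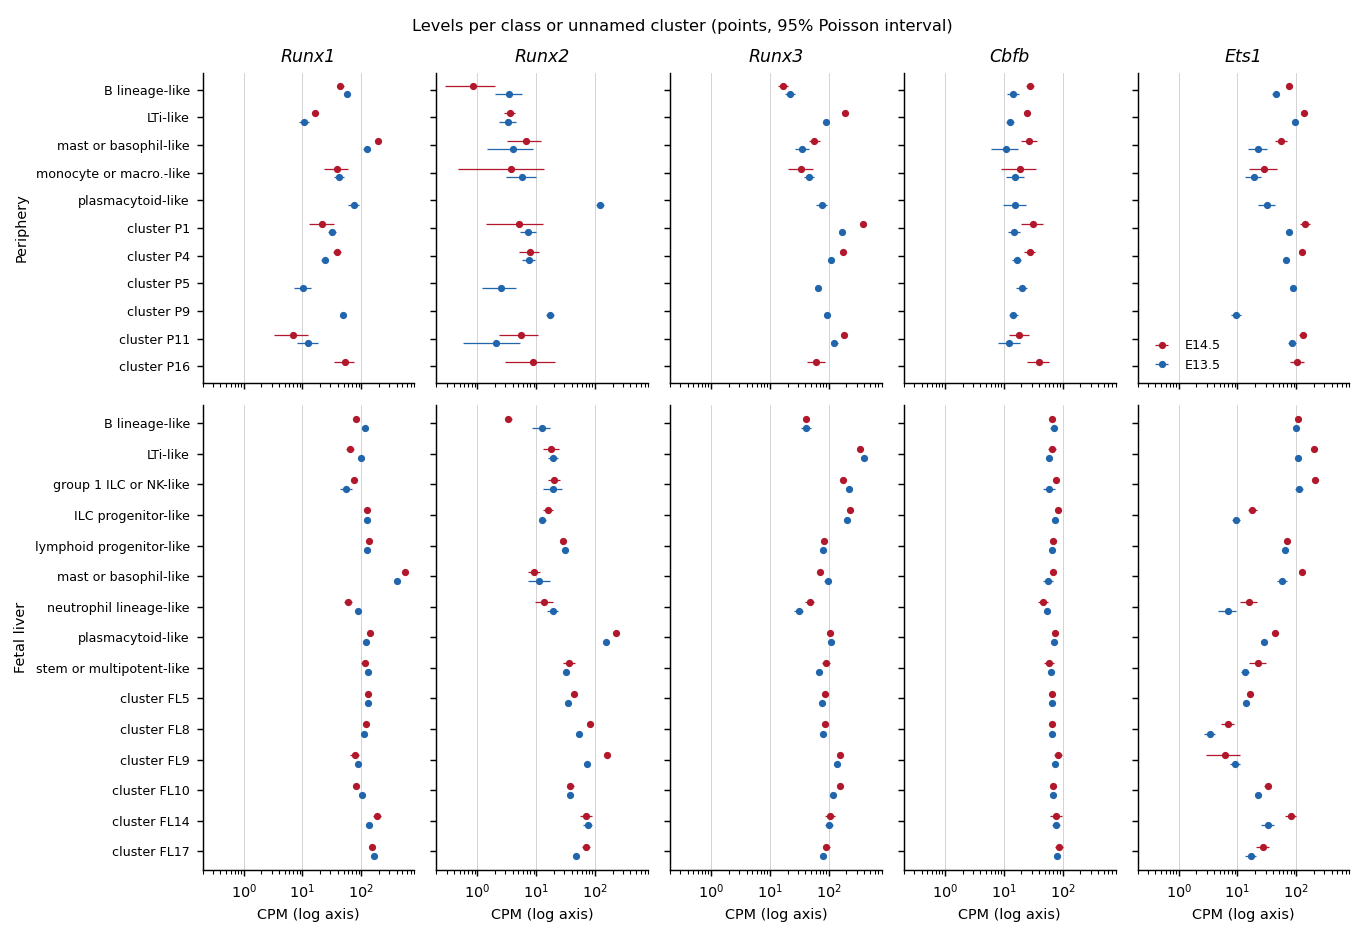
Level of each gene in each class or unnamed cluster of 50 or more cells (CPM, log axis, points with 95% Poisson interval, E14.5 in red and E13.5 in blue). Runx1 stands out in mast cell or basophil-like cells, Runx2 in plasmacytoid-like cells and Runx3 in fetal liver LTi-like cells and P1. Cbfb lies within a narrow band in the fetal liver and runs from 10.8 to 39.6 CPM over both stages of the periphery.

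Cbfb varied least. Its highest group was 2.14 times its lowest in E14.5 periphery, 1.89 times in E13.5 periphery, 1.86 times in E14.5 fetal liver and 1.497 times in E13.5 fetal liver. The same ratios for Runx3 were 22.6, 7.55, 8.13 and 12.9. Of the 44 pairs of neighbours in the order of Cbfb levels, summed over the libraries, 43 had intervals that overlap. The exception was plasmacytoid-like over lymphoid progenitor-like cells in E14.5 fetal liver, at 75.9 and 68.3 CPM. Over 35 cluster-by-stage sums of the fetal liver, the SD of log2(CPM + 5) was 0.18 for Cbfb, against a median of 0.32 over 8161 genes, and 93.1% of the genes varied more. Over 23 such sums of the periphery the SD of Cbfb was 0.43 and the median of 7506 genes 0.45. Ets1 and Runx2 varied more than all but 2.18% and 3.06% of the genes in the fetal liver, and Runx3 and Runx1 more than all but 7.75% and 8.22% in the periphery.

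The Runx genes were used in different proportions by each class. Runx3 was 90.4% (89.6 to 91.1) of the Runx UMIs of LTi-like cells in E14.5 periphery and 86.8% (84.7 to 88.7) in E13.5 periphery, against 80.2% (77.5 to 82.6) in E14.5 fetal liver and 76.9% (75.3 to 78.5) in E13.5 fetal liver. Runx1 was 75.4%, 76.0%, 87.4% and 79.2% of those of mast cell or basophil-like cells in E14.5 periphery, E13.5 periphery, E14.5 fetal liver and E13.5 fetal liver. In B lineage-like cells Runx1 was 71.7%, 69.5%, 64.6% and 68.6% in the same order. Runx2 took 44.6%, 48.7% and 40.4% in plasmacytoid-like cells of E13.5 periphery, E14.5 fetal liver and E13.5 fetal liver, and 40.5% in FL9 of E14.5 fetal liver. In E14.5 periphery no described group exceeded 7.35%, the value of P16.

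**Figure D3:**
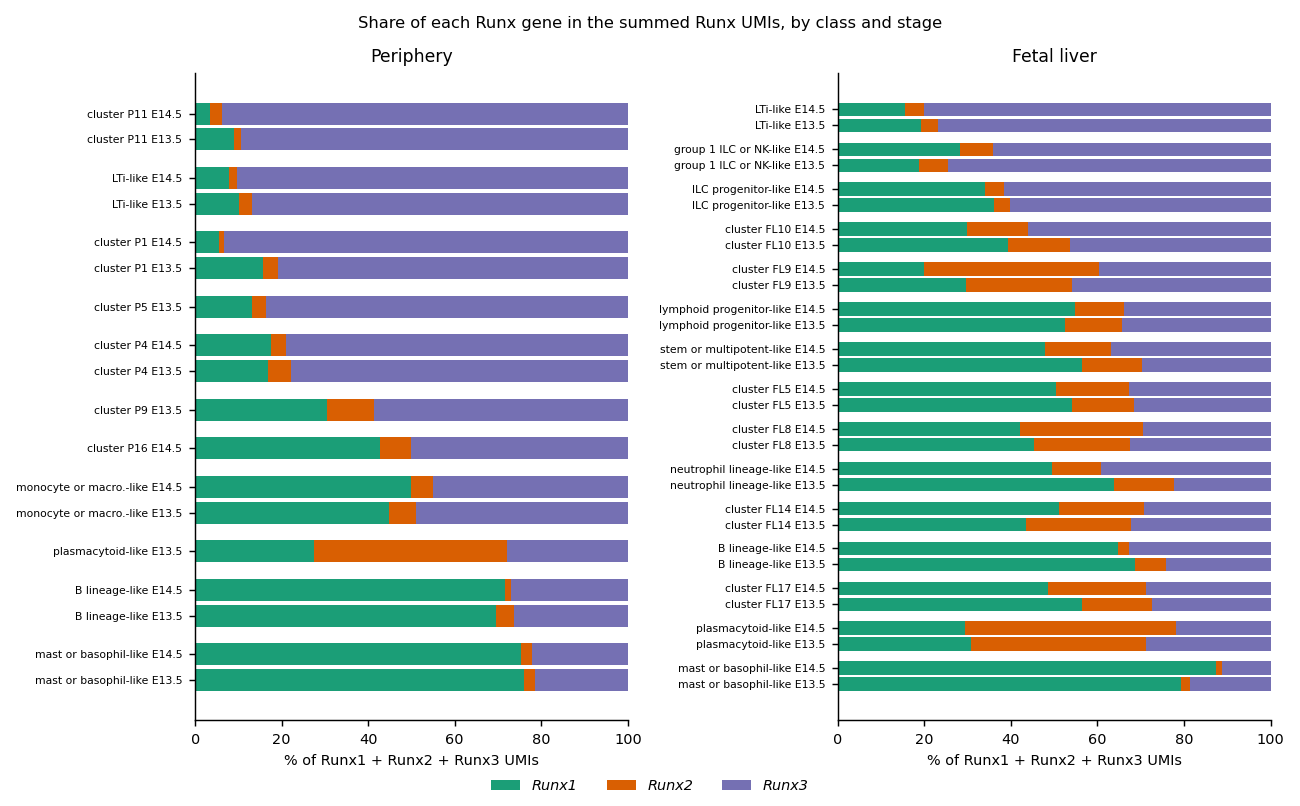
Share of Runx1, Runx2 and Runx3 in their summed UMIs (%, linear axis) for each class or unnamed cluster and stage, E14.5 above E13.5, sorted by the Runx3 share. LTi-like cells of both tissues sit near the top with 76.9% to 90.4% Runx3, mast cell or basophil-like cells at the bottom with 75.4% to 87.4% Runx1, and plasmacytoid-like cells show the widest Runx2 segment.

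Ets1 was highest in P1, LTi-like or group 1 innate lymphoid or NK-like cells, according to the library, and low in several progenitor and myeloid groups. In E14.5 periphery P1 and LTi-like cells had 140 (115 to 169) and 137 (133 to 142) CPM. Their intervals overlap each other and those of P11 at 128, P4 at 126 and P16 at 104 (79.2 to 135). Monocyte or macrophage-like cells of that library, with a median of 1213 UMIs, had 28.5 (15.9 to 47.0). In E13.5 periphery LTi-like cells were highest at 93.5 (87.9 to 99.5) CPM, overlapping P5 at 88.8 and P11 at 85.6, and P9, the cluster with Cd34 and Flt3, was lowest at 9.51 (7.68 to 11.6) CPM. In E14.5 fetal liver group 1 innate lymphoid or NK-like and LTi-like cells had 211 (195 to 227) and 201 (184 to 220) CPM, ahead of mast cell or basophil-like cells at 124 and B lineage-like cells at 108. In E13.5 fetal liver the first 3 in order were group 1 innate lymphoid or NK-like cells at 112, LTi-like cells at 106 and B lineage-like cells at 99.4 CPM, all with overlapping intervals. FL9 was lowest at E14.5 with 6.11 (2.93 to 11.2) CPM, overlapping FL8 at 6.79, and FL8 was lowest at E13.5 with 3.38 (2.68 to 4.20) CPM.

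Innate lymphoid progenitor-like cells of the fetal liver had high Runx3 but little Ets1, with 17.8 (14.9 to 21.1) CPM of Ets1 at E14.5 and 9.45 (7.98 to 11.1) at E13.5. LTi-like cells of the same libraries had 201 and 106 CPM. A UMI of Ets1 was found in 42.5% (40.7 to 44.3) of thinned LTi-like cells in E14.5 periphery, 32.8% (30.1 to 35.7) in E13.5 periphery, 56.9% (50.02 to 63.6) in E14.5 fetal liver and 34.3% (29.5 to 39.3) in E13.5 fetal liver. The lowest shares were 19.3% in mast cell or basophil-like cells of E14.5 periphery, 2.48% in P9 of E13.5 periphery, and 3.13% and 1.58% in FL8 of E14.5 and E13.5 fetal liver. For E14.5 periphery that is the lowest of 6 groups, as P16 and monocyte or macrophage-like cells had no thinned share. Without thinning the LTi-like shares were 66.0%, 55.6%, 76.2% and 56.9% (median UMIs 7996, 9104, 8864 and 11634.5) and the low ones 43.0%, 12.5%, 13.4% and 6.17% (11926, 15631, 24342 and 23371.5).

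Within single LTi-like cells Runx3 and Ets1, and Runx1 and Runx3, were found together about as often as their separate shares give. No pair with Cbfb was counted. Of thinned LTi-like cells with a Runx3 UMI in E14.5 periphery, 42.3% (39.8 to 44.9) also had an Ets1 UMI, and 42.5% of all LTi-like cells there did. The same shares were 36.4% and 32.8% in E13.5 periphery, 55.3% and 56.9% in E14.5 fetal liver and 32.1% and 34.3% in E13.5 fetal liver, each within its interval. Of LTi-like cells with a Runx1 UMI, 44.0% and 28.9% in E14.5 and E13.5 periphery and 75.6% and 77.9% in E14.5 and E13.5 fetal liver also had a Runx3 UMI, against 48.6%, 30.1%, 64.7% and 73.3% of all LTi-like cells. The interval of the share among Runx1 cells held the share of all LTi-like cells in all 4 libraries.

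The stage folds were then taken within each class. For Ets1 the fetal liver fold was positive in 14 of 15 groups, from -0.37 (-0.89 to 0.15) in FL9 to 1.18 (0.74 to 1.61) in FL14, with a median of 0.56. It was 1.09 (0.84 to 1.35) in mast cell or basophil-like, 0.88 (0.65 to 1.12) in group 1 innate lymphoid or NK-like, 0.87 (0.70 to 1.04) in LTi-like and 0.66 (0.41 to 0.90) in innate lymphoid progenitor-like cells. In B lineage-like and lymphoid progenitor-like cells it was 0.13 (-0.04 to 0.30) and 0.08 (0.001 to 0.17). With the mix of groups held at that of E13.5, Ets1 in the fetal liver was at 0.41 (0.35 to 0.46), against 1.39 with each library's own mix. The value depended on the clustering, and other clusterings gave 0.41 to 0.69, with 0.69 at another random seed and 0.58 with an exact neighbour search, both past 0.5. B lineage-like cells, with 108 and 99.4 CPM of Ets1 at E14.5 and E13.5, were the class whose share differed most. The summed B lineage markers were 3719 CPM in E14.5 and 666 CPM in E13.5 fetal liver, and 10 and 7 of 10 reached 10 CPM.

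In the periphery the Ets1 fold was positive in 7 of 7 groups, from 0.29 (-0.003 to 0.57) in P11 to 1.005 (0.51 to 1.496) in mast cell or basophil-like cells. LTi-like cells were at 0.30 (0.21 to 0.40). With the mix held the value was 0.48 (0.39 to 0.56), against 0.55 with each library's own mix of the same 7 groups, which held 95.8% of the E14.5 and 68.6% of the E13.5 UMIs. P5, P9 and plasmacytoid-like cells had enough cells at E13.5 alone and are not in this comparison.

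Runx3 had stage folds of opposite sign in LTi-like cells of the 2 tissues, past 0.5 in the periphery but not in the fetal liver. In the periphery its fold was 0.78 (0.69 to 0.87) in LTi-like cells and 0.90 (0.71 to 1.09) in P1, and in the fetal liver it was -0.27 (-0.38 to -0.15) in LTi-like and -0.33 (-0.52 to -0.14) in group 1 innate lymphoid or NK-like cells. In innate lymphoid progenitor-like cells of the fetal liver the Runx3 fold was 0.12 (0.04 to 0.21). The LTi-like cells of the periphery came mainly from P7, P6, P0 and P3 at E14.5 but from P2 at E13.5. P1, P5 and P11 had raised LTi markers and lie outside the class. These clusters held 81, 39 and 187 cells at E14.5 but 535, 291 and 210 at E13.5. A fold over the class joined with them was not taken. In the fetal liver the LTi-like class was found in 3 of 5 clusterings. With the mix held, Runx3 was at 0.65 (0.57 to 0.73) in the periphery, against 0.49 (0.43 to 0.55) with each library's own mix of the same 7 groups, and at 0.13 (0.09 to 0.17) in the fetal liver. The fetal liver value with each library's own mix was -0.32. Between each library's own mix and the held mix, the sign turned in the fetal liver and stayed positive in the periphery. The mix of clusters within a class was not held, and the part of either mix was not tested.

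Runx1 differed little over all fetal liver cells but varied between classes. Its stage fold there ran from -0.60 (-0.85 to -0.36) in LTi-like cells to 0.50 (0.40 to 0.61) in mast cell or basophil-like cells, and with the mix held it was at -0.01 (-0.05 to 0.02). In the periphery it was 0.24 (0.03 to 0.45) in LTi-like, 0.48 (0.22 to 0.74) in mast cell or basophil-like and -0.50 (-0.73 to -0.28) in B lineage-like cells, and over these 7 groups -0.28 (-0.38 to -0.18) with each library's own mix and -0.06 (-0.19 to 0.07) with the mix held. Runx2 in the fetal liver was at 0.53 (0.44 to 0.62) in plasmacytoid-like cells and 1.06 (0.87 to 1.25) in FL9, and at -1.04 (-1.40 to -0.68) in B lineage-like cells. With the mix held it was at 0.40 (0.34 to 0.45) there, and at 0.20 to 0.30 in the 4 other clusterings, against -0.06 with each library's own mix. In the periphery Runx2 was at -0.94 over all cells, at -0.43 (-0.58 to -0.28) over the 7 groups of both stages with each library's own mix and at -0.28 (-0.49 to -0.08) over the same groups with the mix held, from 4.63 CPM at E14.5 and 5.02 CPM at E13.5. The groups left out hold the plasmacytoid-like cells, with 121 CPM of Runx2 at E13.5. Cbfb was between -0.17 and 0.36 in all 15 fetal liver groups and between 0.06 and 0.88 in the 7 of the periphery.

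**Figure D4:**
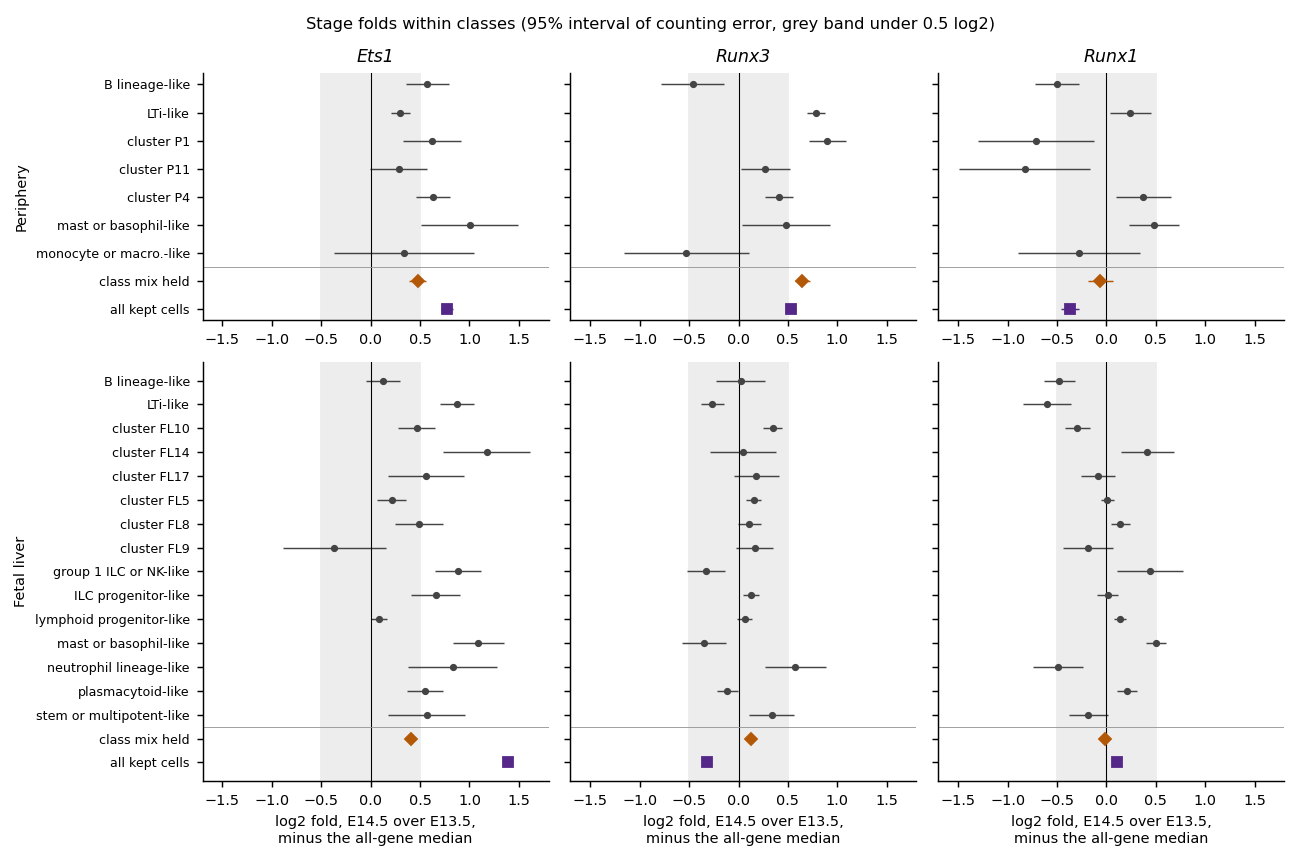
Stage folds (log2, E14.5 over E13.5, less the median of all genes, 95% interval of counting error) of Ets1, Runx3 and Runx1 in each class, with the mix of classes held at E13.5 (diamonds) and over all kept cells (squares). The grey band marks folds under 0.5 in size, and in the fetal liver the Ets1 square at 1.39 lies right of the diamond at 0.41 (0.41 to 0.69 in other clusterings) while the Runx3 square and diamond lie on opposite sides of 0.

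Between tissues the libraries differed in far more genes. At E14.5 51.4% of 8117 genes were past 0.5 in either direction for periphery over fetal liver, and 5 of the 5 members were, while at E13.5 51.9% of 7986 genes and 4 of the 5 members were. With such shares a count of members says little, and kit and tissue cannot be told apart. At E14.5 Runx1 was at -1.75, Runx2 at -2.12, Cbfb at -1.08, Runx3 at 1.05 and Ets1 at 0.86. At E13.5 Runx1 was at -1.29, Runx2 at -1.24, Cbfb at -1.46, Runx3 at 0.19 and Ets1 at 1.46. The median of all genes was -0.17 at E14.5 and -0.41 at E13.5, and without its removal Runx3 at E13.5 was at -0.22, with the sign turned.

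Within classes the picture for Runx3 and Ets1 was another. LTi-like cells of E14.5 periphery had 190 CPM of Runx3 against 333 in those of E14.5 fetal liver, a log2 fold of -0.64 (-0.75 to -0.54), and at E13.5 the values were 91.4 against 397 CPM and -1.65 (-1.76 to -1.55). In B lineage-like, mast cell or basophil-like and plasmacytoid-like cells the Runx3 fold lay between -0.94 and -0.12, against 1.05 and 0.19 over all cells at E14.5 and E13.5. Ets1 in LTi-like cells was at -0.38 (-0.52 to -0.25) at E14.5 and at 0.23 (0.09 to 0.37) at E13.5. In B lineage-like cells Ets1 was at -0.29 and -0.71 and in mast cell or basophil-like cells at -0.91 and -0.80, at E14.5 and E13.5, while in plasmacytoid-like cells at E13.5 it was at 0.54 (0.13 to 0.95). Runx1 in LTi-like cells had 16.6 CPM in E14.5 periphery against 64.7 in E14.5 fetal liver and 10.6 in E13.5 periphery against 99.6 in E13.5 fetal liver, folds of -1.54 and -2.34. Cbfb was between -0.92 and -1.58 in every class that both tissues had, near its value over all cells. Runx2 in plasmacytoid-like cells at E13.5 was at 0.05 (-0.18 to 0.28), from 121 CPM in the periphery against 156 in the fetal liver.

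**Figure D5:**
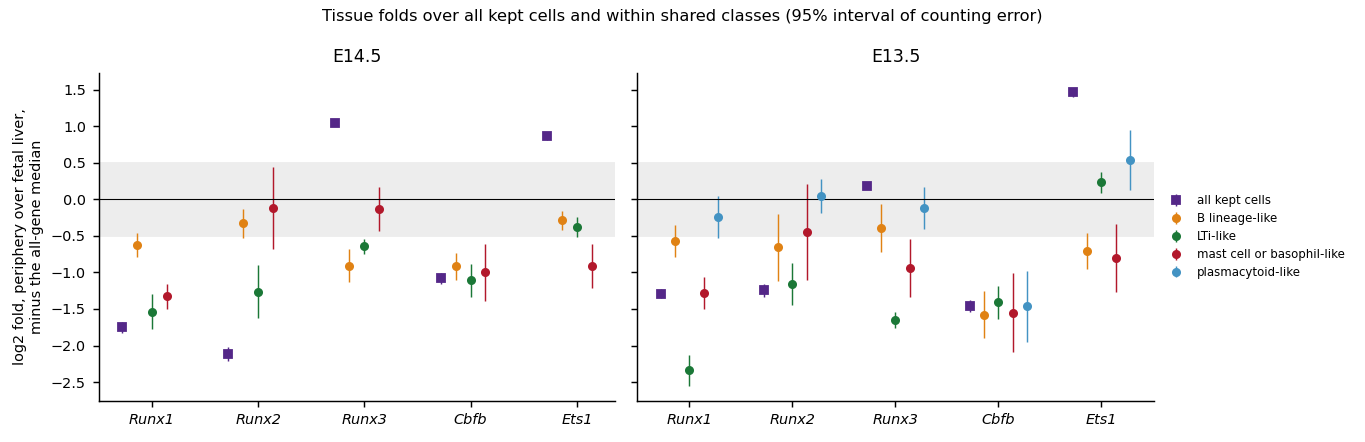
Tissue folds (log2, periphery over fetal liver, less the median of all genes, 95% interval of counting error) over all kept cells (squares) and within the classes both tissues had (circles), at E14.5 and E13.5, with plasmacytoid-like cells at E13.5 alone and a grey band for folds under 0.5 in size. The squares of Runx3 and Ets1 lie above 0 at both stages, whereas the circles of LTi-like cells for Runx3 lie at -0.64 and -1.65.

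Genes with the most similar pattern were taken over cluster-by-stage sums that share libraries and depth, so the values are descriptions. Over 35 fetal liver sums Runx3 went most closely with Cd96 (Pearson r 0.91), Tox (0.90) and Tmem51 (0.88), Runx2 with Cyth4 (0.94), Ifnar2 (0.93) and H2-DMa (0.89), Ets1 with Cyth1 (0.89), St6gal1 (0.83) and Tgfbr2 (0.82), and Runx1 with Gm8113 (0.86), Trpm4 (0.86) and Ripor2 (0.83). For Cbfb the highest were Ranbp3 (0.71), Kpna4 (0.70) and Opa3 (0.68). Over 23 periphery sums Runx1 went with Dtnbp1 (0.91), Slc7a5 (0.91) and B4galt5 (0.90), Runx2 with Upb1 (0.90), Pir (0.89) and Timd2 (0.87), Runx3 with Rtn4rl1 (0.93), mt-Atp6 (0.93) and Parp8 (0.92), Cbfb with Actn4 (0.87), Ube2n (0.86) and Ppp1cc (0.86), and Ets1 with Tecpr1 (0.90), Tiprl (0.88) and Abcd3 (0.88). No gene was named for a member in both tissues. Among the members, Runx3 and Ets1 were at r 0.60 (Spearman 0.78) in the periphery and 0.03 (-0.04) in the fetal liver, Runx1 and Runx3 at -0.64 and -0.14, and Runx2 and Ets1 at -0.38 and -0.51.

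A list of Runx cofactors held 14 genes. They include the Groucho family genes Tle1, Tle3, Tle4 and Aes, the histone acetyltransferases Ep300 and Crebbp and the Eto family corepressors Cbfa2t2 and Cbfa2t3. Counts of list genes past 0.5 stand beside 6.41% of all genes in the fetal liver and 16.0% in the periphery. For the fetal liver stages none of 14 measured was past 0.5, and their median was -0.01. The highest were Kmt2a at 0.17 and Cbfa2t2 at 0.13, the lowest Cbfa2t3 at -0.45 and Ep300 at -0.24. In the periphery 1 of 11 measured was past 0.5, Aes at 0.53 with 129 CPM at E14.5 and 74.3 at E13.5, and the median was 0.15. Tle3 was next at 0.30, and Cbfa2t3 and Smarca4 were lowest at -0.15 and -0.14.

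Of 16 other Ets family factors, 15 were measured in the fetal liver, 2 were higher and 1 lower by 0.5 or more, and the median was -0.02. Spib, which serves plasmacytoid and B cells, was at 1.31 with 11.5 CPM at E14.5 and 1.82 at E13.5, and Erg, a factor of stem cells and endothelium, at 0.90 with 11.0 and 3.75 CPM. Spi1 (PU.1), the myeloid and early B cell factor, was at -0.52 and Elf4 at -0.29. In the periphery 10 were measured, with a median of 0.16. Elk3 was at 0.98, with 62.5 CPM at E14.5 and 24.3 at E13.5, Spi1 was at -1.81, with 31.7 and 105 CPM, Elf2 at 0.44 and Elf4 at -0.16.

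The last list held 23 genes that Runx or Ets1 proteins are known to bind in blood cells. Among them 11 were measured in the fetal liver, 3 were higher and 5 lower by 0.5 or more, and the median was -0.43. The B lineage genes Cd79a and Ebf1 were highest at 3.50 and 2.52, and Id2, the inhibitor that innate lymphocytes need, and Csf1r, the receptor of macrophage growth factor, lowest at -1.21 and -1.18. B lineage-like cells were 35.4% and 1.99% of the E14.5 and E13.5 fetal liver cells, and their part in these values was not tested. In the periphery 17 were measured, 6 were higher and 4 lower, and the median was 0.31. Id2 was at 1.66, with 1525 CPM at E14.5 and 407 at E13.5, the cytokine gene Csf2 at 0.91, Spi1 at -1.81 and Csf1r at -0.88. Spi1 stands in this list and among the Ets factors. For periphery over fetal liver at E14.5, 0 of 14 cofactors were higher and 7 lower, 1 of 14 other Ets factors was higher and 5 lower, and 9 of 16 bound genes were higher and 6 lower. At E13.5 the counts were 0 higher and 8 lower of 14 cofactors, 0 and 6 of 13 Ets factors, and 9 and 3 of 14 bound genes. Of all genes, 51.4% at E14.5 and 51.9% at E13.5 were past 0.5 in either direction, so the counts of cofactors and Ets factors lay near or under the share of all genes. Summed LTi markers were 4986 and 2521 CPM in E14.5 and E13.5 periphery, and their part in these values was not tested.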

How the data were processed

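Libraries were 10x Genomics 3′ tag libraries (kit v2 for periphery, v3 for fetal liver), sequenced on a NextSeq with a 75-cycle kit, per the labels' protocols. The values deposited are unnormalized UMI counts in gene-by-barcode matrices, made with Cell Ranger (3.0.1 for periphery, 3.0.0 for fetal liver, per the file headers) on mm10, per the submitters' processing notes. They hold 44599592 and 53229734 UMIs in 5008 and 4531 barcodes for E14.5 and E13.5 periphery, and 208229937 and 212034840 in 12090 and 10783 for E14.5 and E13.5 fetal liver.

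From these, barcodes under 500 genes or over 10% mitochondrial UMIs were dropped. Doublets were scored with Scrublet as built into scanpy 1.11.5 and removed (3.35%, 3.25%, 7.98% and 3.55% of the rest, in the same library order). In the periphery the automatic threshold marked too few, and the highest scores were taken at 0.8% per 1000 barcodes. Cells of each tissue were clustered over both stages (2000 variable genes, 30 components, 15 neighbours, Leiden resolution 1), leaving out the 5 genes, cell cycle, haemoglobin, mitochondrial and ribosomal protein genes. A cluster was named where more than 60% of a class's markers, and at least 3, were at 20 CPM or more and raised by 1 log2 unit, and where that class had the most markers among the 10 leading genes or, with no class leading there, 75% of its markers raised. This rule was settled after the clusters had been seen. CPM was taken from UMIs summed over cells, with exact Poisson intervals. Shares have exact Clopper-Pearson intervals. The fold, the held mix and the likeness steps were tested on simulated data. PCR and capture error are not in the intervals.

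The 5 genes and all lists were chosen with earlier results of these data known. Named beyond the members are, per gene and tissue, the 3 genes of highest Pearson r over sums of 50 or more cells (20 CPM or more in at least 1 sum), and per list the 2 highest and 2 lowest stage folds. Alternatives were 1 CPM added, no median removed, equal weight per cell, all barcodes, doublets kept, resolution 2, seed 2, members allowed among the variable genes, 2000 UMIs per cell and no thinning. An exact neighbour search was added after the data had been seen. Sequences are from RefSeq (GRCm38.p6) and gene positions from GENCODE.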

Additional observations from a re-analysis of the deposited data

Results flagged for a closer look

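The Runx1 stage fold was of opposite sign in the 2 tissues, -0.37 in the periphery and 0.11 in the fetal liver, a difference of -0.48 on the log2 scale. Over the 7 periphery groups found at both stages it was -0.28 with each library's own mix and -0.06 with the mix held, and in the fetal liver -0.01 with the mix held. The Runx3 stage fold was 0.53 in the periphery and -0.32 in the fetal liver, a difference of 0.85, and with the mix held 0.65 (0.49 with the own mix of the same 7 groups) and 0.13. With 1 library in each group neither difference was tested.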

How the results depend on the processing

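All 13 member folds past 0.5 kept their sign and size class under 1 CPM added, no median removed, equal weight per cell, all barcodes and doublets kept, and the last 2 settings left all 20 folds within their intervals. Folds are named by comparison, periphery over fetal liver at a stage being the tissue fold.

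With 1 CPM added the values that left their interval were, for the stage folds, Ets1 1.52 in the fetal liver and Runx2 -1.36 in the periphery. Tissue folds at E14.5 were Runx1 -1.86, Runx2 -2.78, Runx3 1.10, Cbfb -1.18 and Ets1 0.91, and at E13.5 Runx2 -1.499, Runx3 0.24, Cbfb -1.64 and Ets1 1.63. With no median removed the fetal liver stage folds were Runx1 0.077 and Runx3 -0.35, and those of the periphery Runx1 -0.14, Runx2 -0.72, Runx3 0.75, Cbfb 0.63 and Ets1 1.002. The tissue folds were then Runx1 -1.92, Runx2 -2.29, Runx3 0.88, Cbfb -1.25 and Ets1 0.69 at E14.5, and Runx1 -1.702, Runx2 -1.66, Runx3 -0.22, Cbfb -1.87 and Ets1 1.05 at E13.5. With equal weight per cell the fetal liver stage folds were Runx1 0.22, Runx2 0.0012 (sign turned), Runx3 -0.37 and Ets1 1.31, and Runx2 in the periphery was -0.77. The tissue folds were Runx1 -2.08, Runx3 1.12, Cbfb -1.23 and Ets1 0.79 at E14.5, and Runx1 -1.43, Runx2 -1.33, Cbfb -1.54 and Ets1 1.35 at E13.5.

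With the mix held, Runx2 in the fetal liver was 0.28 at resolution 2, 0.20 at seed 2, 0.30 with the members allowed and 0.22 with the exact neighbour search, and Ets1 was 0.69 at seed 2 and 0.58 with the exact search, both past 0.5 where the reported 0.41 is not. At each of these settings 8 or 9 of the 10 values with the mix held stayed within their intervals. At seed 2 and with the exact search the fetal liver held no class named LTi-like or group 1 innate lymphoid or NK-like, and stem and multipotent progenitor-like cells were unnamed at these and with the members allowed. Class levels left their interval in 24 of 135 values at resolution 2, 28 of 105 at seed 2, 17 of 125 with the members allowed and 22 of 105 with the exact search. Runx1 with the mix held in the periphery was 0.04 at resolution 2 and 0.03 with the exact search, against -0.06. Thinning to 2000 UMIs or not at all moved 211 and 230 of 250 shares, as both change the depth. The cause of the other shifts was not tested. No paired analysis was possible because each group is 1 library. Low members set the limits, Runx2 in periphery classes above all, where levels rest on few UMIs.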
